A study of Homo sapiens with 9 samples.

Results

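AP-1 and EGR proteins are transcription factors whose genes are among the first to be switched on when a cell receives a growth or stress signal. Here 10 of them were followed across 3 genotypes of MYC: the FOS family (FOS, FOSB, FOSL1 and FOSL2), the JUN family (JUN, JUNB and JUND) and the EGR family (EGR1, EGR2 and EGR3). They were chosen by gene symbol, and all 10 were found among the 26485 symbols of the count table. The cells were MV4;11, a human acute myeloid leukaemia line with a rearranged MLL gene and an activated FLT3 receptor. The groups were parental cells, cells with MYC K148Q and cells with MYC K148R, with 3 RNA sequencing libraries each, all untreated and grown in RPMI medium. In K148Q a lysine of MYC becomes glutamine, a common stand-in for acetyl-lysine, and in K148R it becomes arginine, which stays charged and takes no acetyl group. The sources used here do not say how the mutants were made, whether a mutant line is 1 clone, or whether libraries of a genotype are separate cultures. P-values therefore measure only the spread between these libraries, which may be technical.

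An AP-1 factor is a dimer held together by a leucine zipper. JUN proteins bind DNA as homodimers or, more tightly, as heterodimers with a FOS protein, whereas FOS proteins do not form stable dimers with each other. EGR proteins are zinc finger factors that bind GC-rich sites. In resting cells the genes for FOS, FOSB, JUN and EGR1 are typically low, and serum response factor, CREB-type factors and JUN itself bring them up within minutes of a signal through MAP kinases. In myeloid cells, JUN, FOS and EGR proteins are known from the maturation of monocytes and macrophages.

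Total counts ranged from 13747087 to 18938391 per library. Levels are CPM, counts scaled to a common library total after TMM scaling, and a fold is a ratio of mean CPM. A gene is called changed at a Benjamini-Hochberg adjusted p under 0.05 in the edgeR quasi-likelihood fit over 12845 genes. Markers of the line were present in all libraries, with FLT3 between 644 and 660 CPM in parental and between 299.5 and 304 CPM in K148R cells, and MEIS1 between 49.8 and 77.97 CPM over all 9 libraries. K148Q replicate 3 stood apart from replicates 1 and 2: the chi-square statistic divided by its degrees of freedom was 17.3 and 17.8 against them, and 1.34 between them. Across genes, which are no independent replicates, its deviation had a Spearman correlation of -0.72 with GC content. K148R replicates 1 and 3 deviated along GC content in opposite directions, with correlations of 0.43 and -0.41.

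JUN, FOSB, FOS, JUND and the EGR genes were highest in K148R cells, and FOSL1 and FOSL2 were lowest there. All 10 genes passed the filter on low counts, but EGR2 did so through the K148R libraries alone and EGR3 through these and 2 parental libraries, so both needed the group in which they were high. In K148R against parental cells 8 of the 10 were called higher and 2 lower (6 and 2 of 8 without EGR2 and EGR3), where 75.1% of all tested genes were called, 37.8% higher and 37.3% lower. In K148R against K148Q cells 7 were called higher and 2 lower (5 and 2 of 8 without EGR2 and EGR3), where 71.0% of all genes were called, 36.6% higher and 34.5% lower. In K148Q against parental cells 3 were called higher and 2 lower (3 and 1 of 8 without EGR2 and EGR3), where 53.3% of all genes were called, 27.0% higher and 26.3% lower. Each pair of comparisons shares the libraries of 1 genotype.

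The libraries of K148R and parental cells did not overlap for any member, with 8 higher and 2 lower, as for 80.6% of all tested genes (40.4% higher and 40.2% lower). K148R and K148Q libraries did not overlap for 9 members, 7 higher and 2 lower, and for 71.4% of all genes (37.0% higher and 34.5% lower). K148Q and parental libraries did not overlap for 5 members, 3 higher and 2 lower, and for 59.5% of all genes (29.8% higher and 29.7% lower). Called above both other genotypes in K148R cells were 7 members, beside 28.5% of all genes, and called below both were 2, beside 27.4% of all genes. These shares are the background against which the counts of calls stand. EGR2 and EGR3 are among the 7 members called above both other genotypes and among those whose libraries lay higher in K148R cells. Both needed the K148R libraries to pass the filter, so their place there was partly fixed in advance. In K148R against parental cells 14.4% of all genes were called at 2-fold higher or more. The median log2 fold change of the 10 was 1.20 in K148R against parental cells, 1.41 in K148R against K148Q cells and 0.11 in K148Q against parental cells, beside medians over all genes of -0.0035, 0.017 and -0.0072. Over the 8 members without EGR2 and EGR3 the medians were 0.79, 0.55 and 0.22 in the same order. An exact permutation of 3 against 3 libraries cannot give a p below 0.1.

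**Figure D1:**
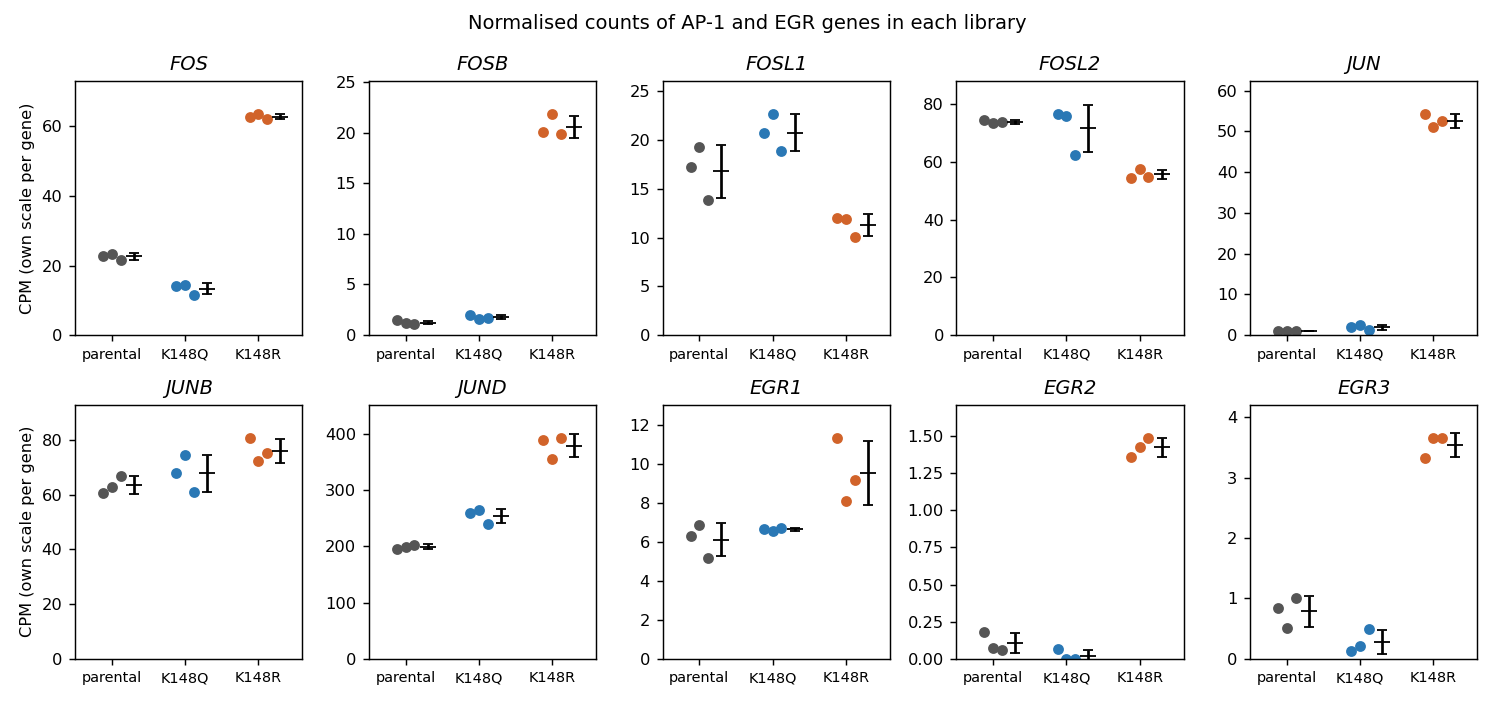
Normalised counts (CPM, y axis, own scale for each gene) of the 10 genes in each library, with points for the 3 libraries of a genotype and the black bar for mean and SD. The K148R points of FOS, FOSB, JUN, JUND, EGR1, EGR2 and EGR3 lie above all other points of that gene, and those of FOSL1 and FOSL2 lie below them.

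The sequences just before the starts of these genes were searched for sites of the signal-responsive factors named above. The motifs were chosen after values or sequences were seen, so their counts beside those of all windows are no test. The stretches that hold one are printed here for the members that changed. RefSeq promoter windows on GRCh38.p14, 250 bases before to 50 bases after a start, were at hand for 8 members (all but FOSL1 and EGR3), with 10 windows because EGR2 has several starts. Capitals mark TGACGT on either strand (ACGTCA on the other), which is the core of the cyclic AMP response element bound by CREB-type and JUN-containing dimers, the CArG box bound by serum response factor, and TGACATCA, the AP-1-like element of the JUN gene. For FOS, FOSB, EGR1 and JUND the bases printed end before the gene's first annotated base in GENCODE v29. For JUN, EGR2 and FOSL2, whose RefSeq starts lie inside a longer GENCODE model, 30 bases round the element are given.
FOS, chr14:75278678-75278773, plus strand: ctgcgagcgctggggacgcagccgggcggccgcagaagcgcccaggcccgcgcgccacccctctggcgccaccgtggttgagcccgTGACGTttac
FOSB, chr19:45467846-45467994, plus strand: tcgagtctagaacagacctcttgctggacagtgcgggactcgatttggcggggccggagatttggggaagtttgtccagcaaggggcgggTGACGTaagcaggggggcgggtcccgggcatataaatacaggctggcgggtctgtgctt
EGR1, chr5:138465329-138465478, plus strand: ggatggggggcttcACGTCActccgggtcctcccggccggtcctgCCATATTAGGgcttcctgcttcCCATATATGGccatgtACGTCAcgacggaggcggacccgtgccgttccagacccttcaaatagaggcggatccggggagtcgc
JUND, chr19:18281623-18281772, minus strand: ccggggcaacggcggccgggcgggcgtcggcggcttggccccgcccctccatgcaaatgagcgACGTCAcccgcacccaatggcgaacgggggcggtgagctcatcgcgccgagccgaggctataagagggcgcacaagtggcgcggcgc
JUN, chr1:58784089-58784118, minus strand: ggggTGACATCAtgggctatttttaggggt
EGR2, chr10:62816412-62816441, minus strand: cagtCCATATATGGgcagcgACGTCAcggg
FOSL2, chr2:28392788-28392817, plus strand: gggtTGACGTgagtgaatccacatggtaca

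TGACGT was found in 6 of the 8 members (FOS, FOSB, FOSL2, JUND, EGR1 and EGR2). This was 6 of the 10 member windows, beside 7.98% of all 35116 promoter windows of that length. In FOS, FOSB and FOSL2 TGACGT began 64, 60 and 66 bases before the start, at positions -64, -60 and -66. FOS and FOSB were higher in K148R cells and FOSL2 was lower, so the same letters at a like distance stood before genes called in opposite directions. The CArG box was in 2 of the 10 member windows, that of EGR1 at positions -105 and -83 and 1 of EGR2 at -71. It was in 1.29% of all windows. Bases further than 250 before a start were not searched, so a CArG box or other element lying there would be missed. The JUND window holds a further TGACGT that overlaps its own complement at -200, before the stretch printed. TGACATCA was in the JUN window and in 2.61% of all. It was taken from the JUN window, so its presence there was fixed in advance. The E-box CACGTG, the site that MYC binds with MAX, was in 1 of the 10 member windows, 1 of EGR2, and in 7.26% of all windows. The AP-1 site TGANTCA was in the window of FOSL2 alone (7.71% of all windows) and the EGR site GCGTGGGCG in that of none of the 8 (0.795% of all). A match of letters is a description of the window only.

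Among the JUN family, JUN had the largest change, from about 1 CPM to over 50 CPM in K148R cells. JUN (chromosome 1, 58780788 to 58784327) encodes the strongest transcriptional activator of the family and has 1 exon. Its level in replicates 1, 2 and 3 was 1.02, 1.08 and 1.07 CPM in parental cells, 1.96, 2.53 and 1.24 CPM with K148Q and 54.2, 51.0 and 52.5 CPM with K148R. Every K148R library lay above 50 CPM and every other library below 3 CPM. The rise in K148R cells was 49.5-fold over parental (log2 fold change 5.62, SE 0.16, adjusted p = 3e-13) and 27.5-fold over K148Q cells (log2 fold change 4.79, SE 0.15, adjusted p = 8e-13). By this log2 fold change JUN ranked 82 of 12845 genes in K148R against parental cells, and 1.6% of tested genes were called at 16-fold higher or more. JUN was also called higher in K148Q than in parental cells, 1.80-fold (log2 fold change 0.83, SE 0.25, adjusted p = 0.012), with 87 against 50 counts over the 3 libraries. Without K148Q replicate 2, the highest of that group, the K148Q call ended (log2 fold change 0.58, adjusted p = 0.0843).

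JUND (chromosome 19, 18279760 to 18281622), the family member that is expressed in most resting cells, had the highest level of the 10 in every library and was called higher in each comparison. It had 194.8, 199.6 and 203 CPM in parental libraries, 259, 264 and 240.0 with K148Q, and 389, 356 and 393 with K148R, with no overlap between any of the groups. The log2 fold change was 0.35 in K148Q (SE 0.056, adjusted p = 0.00011) and 0.93 in K148R against parental cells (SE 0.056, adjusted p = 1.1e-09), and 0.58 between K148R and K148Q cells (adjusted p = 2.7e-07).

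JUNB (chromosome 19, 12791496 to 12793315), often an antagonist of JUN in growth control, had the smallest change of the family. Its levels were 60.5, 62.9 and 66.9 CPM in parental libraries, 67.8, 74.6 and 60.8 with K148Q, and 80.8, 72.2 and 75.1 with K148R. The K148R libraries lay above the parental ones (log2 fold change 0.26, SE 0.08, adjusted p = 0.0082), and they overlapped with the K148Q libraries (log2 fold change 0.17, adjusted p = 0.072). The call against parental cells ended with an offset for GC content and length (log2 fold change 0.07, adjusted p = 0.178) and without parental replicate 1 (log2 fold change 0.22, adjusted p = 0.0521). In K148Q against parental cells JUNB did not pass (log2 fold change 0.09, adjusted p = 0.35), but it did without K148Q replicate 3 (log2 fold change 0.18, adjusted p = 0.0152). JUNB shares 259 exon bases with HOOK2 on the opposite strand, and the sources used here do not say whether counting used strand, so reads of the pair cannot be told apart.

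The 3 JUN genes have 1 exon each, and the transcripts of JUNB (64.9% GC) and JUND (69.7% GC) are rich in GC. In K148R against parental cells the 280 tested protein-coding genes with 1 exon had a median log2 fold change of 0.35 with 51.8% called higher. Those with at least 60% GC, 1821 genes, had a median of 0.25 with 49.6% called higher, whereas all 11761 protein-coding genes had a median of -0.01 with 38.6% called higher. RN7SK, a small nuclear RNA without a poly(A) tail, lay between 435 and 523 CPM in the K148R libraries and between 3.72 and 15.98 CPM in the other 6. RN7SK and these gene classes were singled out after values were seen. The part of RN7SK and of the single-exon shift in the JUN family values was not tested. With the offset for GC content and length JUN and JUND stayed called, with log2 fold changes between 5.53 and 5.63 for JUN and between 0.70 and 0.94 for JUND over that and the other 10 settings with all libraries of the groups compared.

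**Figure D2:**
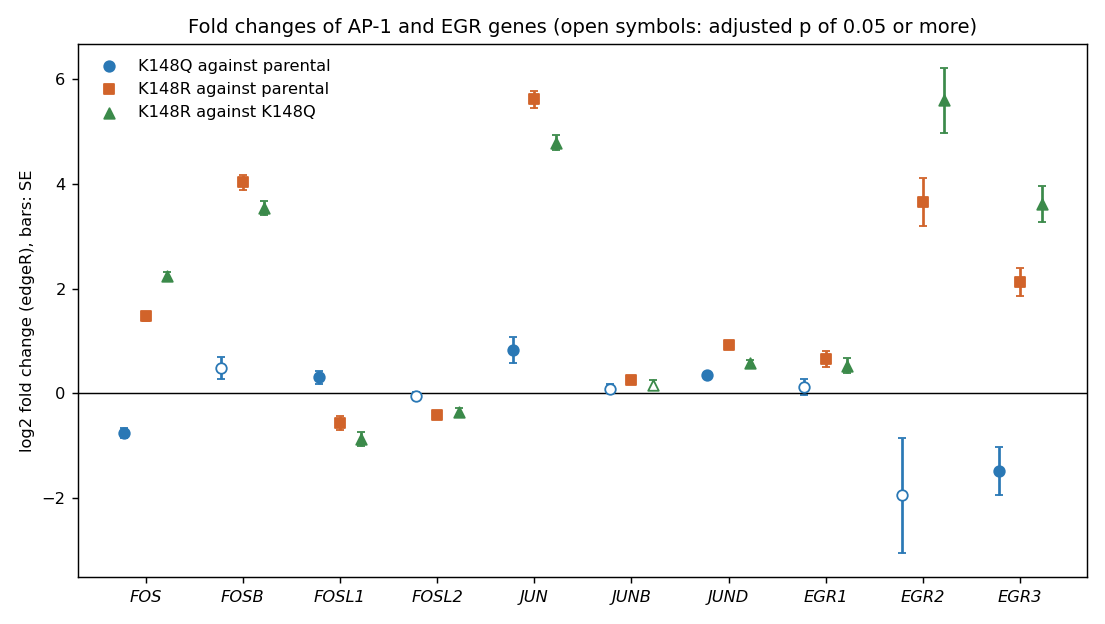
Log2 fold changes from edgeR (y axis, with bars for the SE) of the 10 genes (x axis) in the 3 comparisons, with open symbols where the adjusted p was 0.05 or more. JUN, FOSB, EGR2, EGR3 and FOS have the largest values in K148R cells, while FOS, EGR2 and EGR3 lie below 0 in K148Q against parental cells.

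The FOS family split, with FOS and FOSB higher and FOSL1 and FOSL2 lower in K148R cells. FOS (chromosome 14, 75278774 to 75282230), the partner with which JUN forms the classical AP-1 dimer, had 22.9, 23.4 and 21.5 CPM in parental libraries, 14.1, 14.3 and 11.6 with K148Q, and 62.8, 63.5 and 62.0 with K148R. The mutants thus lay on opposite sides of the parental cells, and no group overlapped with another. FOS fell by 0.76 on the log2 scale in K148Q cells (SE 0.093, adjusted p = 9.8e-06) and rose by 1.47 in K148R cells (SE 0.085, adjusted p = 6.3e-10), and K148R and K148Q cells differed by 2.23 (SE 0.089, adjusted p = 1.2e-11).

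FOSB (chromosome 19, 45467995 to 45475179), a FOS protein that also exists as a truncated, long-lived form, had 1.45, 1.16 and 1.13 CPM in parental libraries, 1.96, 1.57 and 1.74 with K148Q, and 20.1, 21.8 and 19.8 with K148R. The K148R libraries were 16.5-fold above the parental ones (log2 fold change 4.03, SE 0.15, adjusted p = 3.2e-12) and 11.7-fold above the K148Q ones (log2 fold change 3.54, SE 0.14, adjusted p = 8.6e-12). K148Q libraries lay above the parental ones without passing the test (log2 fold change 0.49, SE 0.21, adjusted p = 0.078). FOSB lies within the span of ERCC1 on the opposite strand, with 0 shared exon bases in GENCODE v29.

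FOSL1 and FOSL2 encode FRA1 and FRA2, which lack the strong activation domain of FOS. FOSL2 (chromosome 2, 28392448 to 28417312) had 74.6, 73.4 and 73.7 CPM in parental libraries, 76.5, 75.9 and 62.3 with K148Q, and 54.5, 57.5 and 54.8 with K148R. Its K148R libraries were the lowest of the 9 (log2 fold change -0.41 against parental, SE 0.078, adjusted p = 0.00023, and -0.36 against K148Q cells, adjusted p = 0.00075). With the GC and length offset these falls were larger, at -0.68 and -0.55. In K148Q against parental cells FOSL2 did not pass (log2 fold change -0.05, adjusted p = 0.63), and its sign turned without K148Q replicate 3 (0.054, adjusted p = 0.415). With the GC and length offset it was called lower there (log2 fold change -0.13, adjusted p = 0.023).

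FOSL1 (chromosome 11, 65892049 to 65900573) had 17.2, 19.2 and 13.9 CPM in parental libraries, 20.7, 22.6 and 18.8 with K148Q, and 12.03, 11.9 and 10.03 with K148R. It fell by 0.56 on the log2 scale in K148R against parental cells (SE 0.13, adjusted p = 0.0012) and by 0.87 against K148Q cells (SE 0.13, adjusted p = 2.3e-05). The K148Q and parental libraries overlapped, and the call there (log2 fold change 0.31, adjusted p = 0.049) ended without parental replicate 1 or 3, without K148Q replicate 1 or 2, and without K148R replicate 1 or 2 (adjusted p from 0.0556 to 0.244). It also ended with DESeq2 (adjusted p = 0.0652), with upper quartile scaling (adjusted p = 0.0821), with the filter of 1 CPM (adjusted p = 0.0506) and with only the compared groups (adjusted p = 0.0563).

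The EGR family was low throughout, and its levels were highest in K148R cells. EGR1 (chromosome 5, 138465490 to 138469315), a factor of growth and of macrophage maturation whose promoter is printed above, had 6.27, 6.87 and 5.18 CPM in parental libraries, 6.65, 6.57 and 6.70 with K148Q, and 11.3, 8.06 and 9.17 with K148R. The 3 K148R libraries lay above the other 6, with K148R replicate 1 the highest. The log2 fold change was 0.65 against parental (SE 0.15, adjusted p = 0.001) and 0.53 against K148Q cells (SE 0.15, adjusted p = 0.0049). K148Q and parental cells overlapped (log2 fold change 0.13, adjusted p = 0.52).

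EGR3 (chromosome 8, 22687659 to 22693302), a relative of EGR1 that calcium signals induce in lymphocytes, had 14, 7 and 17 counts in the parental, 2, 3 and 8 in the K148Q, and 61, 54 and 59 in the K148R libraries. It was 4.50-fold higher in K148R than in parental cells (log2 fold change 2.13, SE 0.27, adjusted p = 5.4e-06). In K148Q cells it was lower than in parental cells (log2 fold change -1.49, SE 0.45, adjusted p = 0.013), with 13 against 38 counts, a count ratio of 0.35 (95% interval 0.171 to 0.672, exact binomial, for counting error only). This K148Q call ended without parental replicate 3 (log2 fold change -1.27, adjusted p = 0.0639) and without K148Q replicate 1 (log2 fold change -1.15, adjusted p = 0.0627). EGR3 shares 164 exon bases with AC055854.1 on the opposite strand, a gene absent from the count table. Since the strand setting is not given, reads of the pair cannot be told apart.

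EGR2 (chromosome 10, 62811996 to 62919900 with its upstream transcripts), a factor of macrophages and myelinating cells, had 3, 1 and 1 counts in the parental, 1, 0 and 0 in the K148Q, and 25, 21 and 24 in the K148R libraries. Over the groups this was 5, 1 and 70 counts. The count ratio of K148R over parental cells was 13.4 (95% interval 5.48 to 42.6) and of K148R over K148Q cells 65.4 (11.4 to 2620), again for counting error only. K148Q and parental cells did not pass (adjusted p = 0.15), and with so few counts a difference between them was not detectable at this depth.

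Per length of exon, JUND led in every genotype, followed by JUNB, but the order below them changed. RPKM (CPM per kilobase of GENCODE v29 exon) was 107 ± 2.28 for JUND, 34.9 ± 1.77 for JUNB, 10.3 ± 0.0903 for FOSL2, 8.89 ± 1.43 for FOSL1 and 6.98 ± 0.305 for FOS in parental cells (SD, n = 3). EGR1 came next at 1.95 ± 0.273, then JUN at 0.30 ± 0.00892, FOSB at 0.224, EGR3 at 0.162 and EGR2 at 0.0283, and the libraries of FOSB and EGR3 overlapped. In K148R cells JUND was at 204 ± 10.8 and JUNB at 41.8 ± 2.39, and FOS at 19.4 ± 0.232 and JUN at 14.8 ± 0.457 came next, above FOSL2 at 7.77 ± 0.232 and FOSL1 at 5.99 ± 0.586. FOSB at 3.71 ± 0.196 and EGR1 at 3.03 ± 0.527 overlapped, and EGR3 at 0.73 and EGR2 at 0.386 were last. In K148Q cells FOSL1 (11.0 ± 1.01) and FOSL2 (9.999 ± 1.12) overlapped, FOS was at 4.12 ± 0.469, and JUN (0.539 ± 0.183) overlapped with FOSB (0.316 ± 0.0345).

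The make-up of each family followed from these levels. FOS took 26.4 ± 0.602% of the summed FOS family RPKM in parental cells, 16.2 ± 0.36% with K148Q and 52.6 ± 0.943% with K148R, and FOSB 0.85, 1.253 and 10.1%. FOSL1 and FOSL2 together with their shares of 33.5 and 39.2% made up most of the family in parental cells, against 16.2 and 21.1% in K148R cells. The summed FOS family level was 26.4 ± 1.74 RPKM in parental cells, 25.4 ± 2.5 with K148Q and 36.9 ± 1.09 with K148R, so the parental and K148Q sums overlapped. In the JUN family JUND kept between 74.6 and 79.2% of the sum in all 9 libraries, JUN went from 0.211% to 5.71% from parental to K148R cells, and JUNB from 24.5% to 16.1%. EGR1 took 90.9% of the summed EGR family in parental cells, 97.1% with K148Q and 72.8% with K148R. These are shares of RNA, and a member's share moves when another member does.

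**Figure D3:**
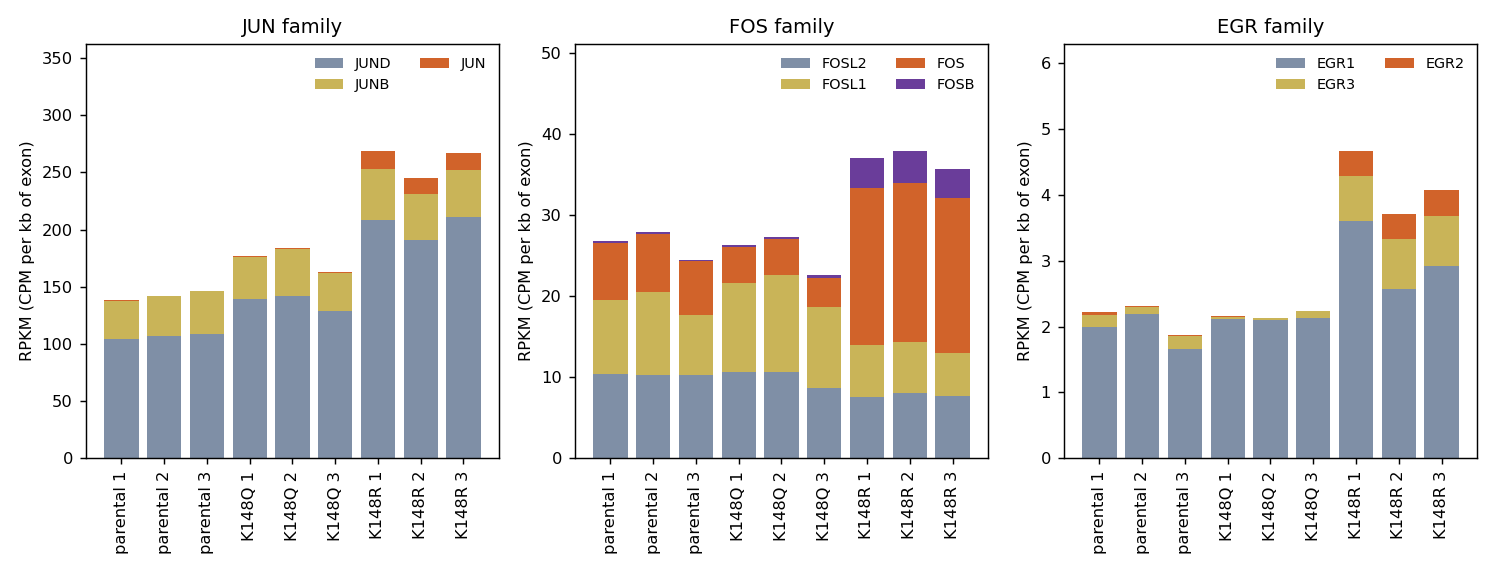
Summed RPKM (y axis, stacked by gene) of the JUN, FOS and EGR families in each of the 9 libraries (x axis). FOS and FOSB take up most of the FOS family bar in the K148R libraries and FOSL1 and FOSL2 in the others, while JUND fills most of every JUN family bar.

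Genes that answer the same signals were taken from 5 lists. Their counts of calls stand beside the shares of all tested genes that were called. These were 75.1% in K148R against parental cells (37.8% higher and 37.3% lower). They were 71.0% in K148R against K148Q cells (36.6% and 34.5%) and 53.3% in K148Q against parental cells (27.0% and 26.3%). Of 26 other immediate early genes 23 were tested, and in K148R against parental cells 17 were higher and 4 lower (median log2 fold change 1.69). Only in K148R cells did KLF2 and EGR4 reach the level the filter asks for in all 3 libraries. Without these 2 genes 15 of 21 were higher and 4 lower (median 1.51). RHOB, a small GTPase, rose from 2.03 ± 0.337 to 19.4 ± 1.17 CPM, and ATF3, a stress-induced partner of JUN, from 2.03 ± 0.208 to 19.0 ± 0.63 CPM. BTG2, which restrains proliferation, was at 158 ± 3.78 CPM with K148R, 27.2 ± 1.46 with K148Q and 29.6 ± 0.206 in parental cells. ETS2, an ETS factor, fell from 216 ± 5.42 CPM in parental to 170 ± 7.88 in K148R and 102 ± 1.28 in K148Q cells. In K148R against K148Q cells 18 of the 23 were higher and 0 lower (median 1.42), and 17 and 0 of 21 without KLF2 and EGR4. In K148Q against parental cells 10 were higher and 6 lower (median 0.22), and 9 and 6 of 21 without these 2 genes. PHLDA1 rose there from 4.12 ± 0.128 to 14 ± 3.27 CPM, and IER5 fell from 62.1 ± 3.01 to 33.8 ± 2.63 CPM.

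Feedback inhibitors are induced by MAP kinase signalling and EGR factors and then dampen them. In K148R against parental cells 8 of 13 tested were higher and 4 lower (median 0.71). SPRY2, which blocks receptor tyrosine kinase signalling, was higher in both mutants, at 2.50 ± 0.3 CPM in parental cells, 15.99 ± 1.38 with K148Q and 15.3 ± 0.868 with K148R. DUSP6, a phosphatase of ERK, was likewise at 34.9 ± 2.4, 84.0 ± 7.86 and 79.8 ± 2.45 CPM in that order. Other rises were large in K148R cells only. TSC22D3 was at 6.88 ± 0.437, 8.59 ± 0.691 and 66.7 ± 4.39 CPM in the same order, and DUSP10 at 10.99 ± 0.676, 8.02 ± 0.977 and 53.8 ± 3.685 CPM. DUSP4, another MAP kinase phosphatase, fell from 40.4 ± 1.55 to 12.1 ± 1.19 CPM in K148R cells, and NAB1, a corepressor that binds EGR proteins, from 17.4 ± 1.41 to 8.88 ± 1.08 CPM. In K148Q against parental cells 5 were higher and 4 lower (median 0.08), among them the corepressor NAB2, which was lower (10.6 ± 0.486 against 15.0 ± 0.879 CPM), and in K148R against K148Q cells 5 were higher and 3 lower (median 0.10).

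Of 12 bZIP partners outside the FOS and JUN families that did not need the K148R libraries to pass the filter, 5 were higher and 4 lower in K148R against parental cells (median 0.04), 3 and 4 in K148Q against parental cells (median 0.0048), and 5 and 2 in K148R against K148Q cells (median 0.07). The counts in K148R against parental cells were near the shares of all tested genes, 37.8% called higher and 37.3% lower. CREB5, a CREB-type factor that can dimerise with JUN, fell from 24.1 CPM in parental to 0.088 in K148Q and 0.382 in K148R cells. BATF, which pairs with JUN proteins in immune cells, rose from 13.6 CPM in parental to 19.7 in K148Q and 24.7 in K148R cells.

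The 32 kinases and factors upstream of AP-1 and EGR were all tested, with 13 higher and 12 lower in K148R against parental cells (median 0.05), 6 and 9 in K148Q against parental cells (median -0.01) and 10 and 9 in K148R against K148Q cells (median -0.03). Here too the counts in K148R against parental cells were near the shares of all tested genes. MKL1, a coactivator of serum response factor, rose from 107 CPM in parental to 205 in K148Q and 197 in K148R cells. RPS6KA2, a kinase that ERK activates, rose from 2.88 CPM in parental to 15.3 in K148R cells and was at 2.77 in K148Q cells. MEF2C, a factor that MAP kinases activate, fell from 161 CPM to 64.5 in K148Q and 37.2 in K148R cells.

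Of 20 tested textbook targets of AP-1 and EGR, 13 were higher and 4 lower in K148R against parental cells (median 0.71), and 17 higher and 3 lower in K148R against K148Q cells (median 1.07). In K148Q against parental cells 6 were higher and 11 lower (median -0.47). CXCL8, a neutrophil chemokine, was at 5.44 ± 0.645 CPM in parental cells, 2.29 ± 0.389 with K148Q and 67.0 ± 4.42 with K148R, called lower and higher than parental like FOS. IL1B, an inflammatory cytokine, was at 1.36 ± 0.135, 3.00 ± 0.0746 and 27.3 ± 1.3 CPM in that order. TNFAIP3, an inhibitor of NF-kappaB, fell from 44.0 to 17.1 CPM in K148Q cells. CCND1, the G1 cyclin that JUN can activate, fell from 25.0 ± 1.46 CPM in parental to 9.88 ± 0.393 in K148Q and 1.49 ± 0.178 in K148R cells. MMP9 reached the filter's level in K148R cells alone, and without it 12 of 19 were higher and 4 lower in K148R against parental cells (median 0.60). Without MMP9, 16 of 19 were higher and 3 lower in K148R against K148Q cells (median 0.93). In K148Q against parental cells 6 were then higher and 10 lower (median -0.45). NAB2, ATF3 and MAFF are each on 2 of the lists.

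**Figure D4:**
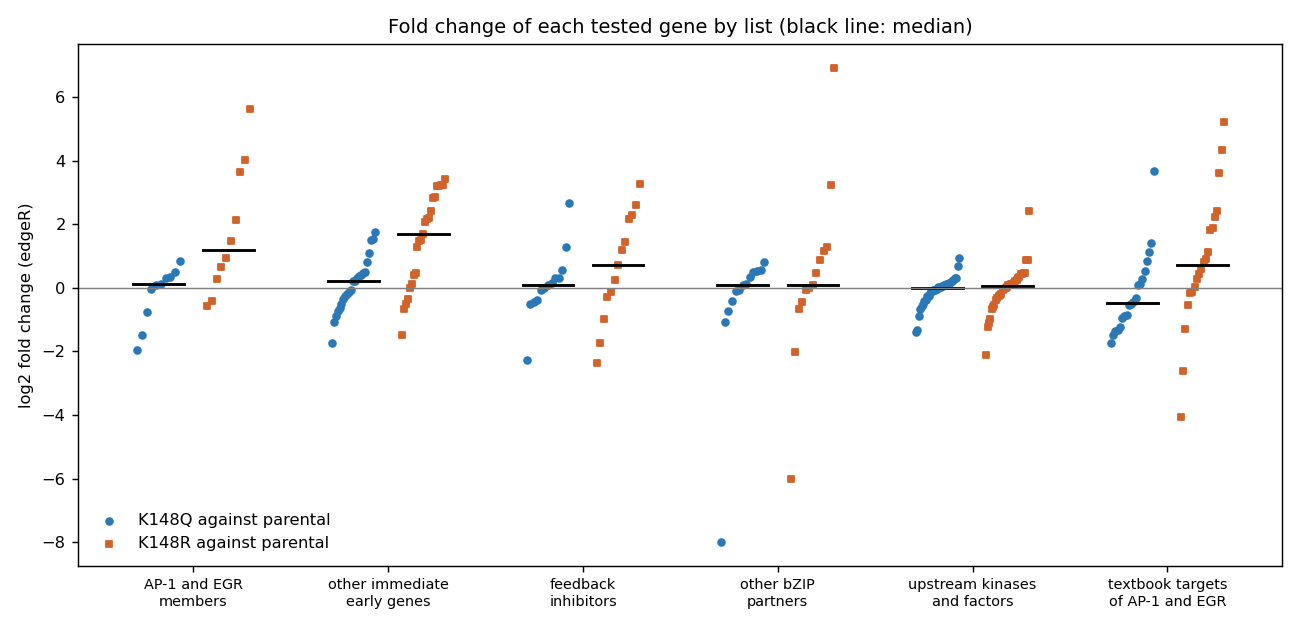
Log2 fold change (y axis) of each tested gene by list (x axis) in K148Q and in K148R against parental cells, with a black line at the median of each. The drawn medians of the K148R values are 1.20 for the AP-1 and EGR genes (0.79 without EGR2 and EGR3), 1.69 for other immediate early genes (1.51 without KLF2 and EGR4) and 0.05 for upstream kinases and factors.

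Summed monocyte markers were highest in K148R cells, and summed granule markers in K148Q cells. Of 10 tested monocyte and macrophage markers (17 listed) 8 were higher and 2 lower in K148R against parental cells. Of all tested genes 37.8% were called higher and 37.3% lower in that comparison. The summed level of the monocyte and macrophage markers was 620 to 635 CPM in parental libraries, 961 to 1023 with K148Q and 2506 to 2536 with K148R. LYZ alone was at 161, 491 and 1649 CPM on average in that order, and so made up much of each sum. MPEG1 and FCGR1A, the 2 called lower, were at 145 and 65.8 CPM in parental cells. In K148Q cells they were at 9.68 and 71.2 CPM, and in K148R cells at 79.0 and 36.8 CPM. CD14 was at most 0.217 CPM in parental and 0.557 CPM in K148R libraries and had 0 counts in K148Q libraries, and MRC1 had 0 counts in all groups. The summed granule and neutrophil markers were at 568 to 578 CPM in parental libraries, 2344 to 2723 with K148Q and 1546 to 1649 with K148R. Of 7 tested granule markers 2 were higher and 5 lower in K148R against K148Q cells (36.6% and 34.5% of all genes). PRTN3 was at 1094 CPM in K148Q and 294 CPM in K148R cells. CTSG and CSF3R were the 2 higher, at 138 and 60.6 CPM in K148Q and 342 and 93.6 CPM in K148R cells. T and NK cell markers summed to 269 to 290.5 CPM in parental and 745 to 789 in K148R libraries. CD4, which monocytes also carry, made up 219 to 239 and 716 to 762 of these, and CD3E had 0 counts in all libraries. B cell markers summed to at most 7.59 CPM, and red cell and platelet markers to at most 20.7 CPM, in any library. Fibroblast and epithelial markers summed to 27.4 to 31.8 CPM in parental libraries, at most 1.80 CPM with K148Q and at most 10.8 CPM with K148R. The keratins KRT8 and KRT18 fell, from 11.3 and 16.3 CPM in parental to 1.77 and 0.255 CPM in K148R cells, whereas the collagens COL1A1, COL1A2 and COL3A1 were called higher in K148R than in parental cells, at 2.89, 1.48 and 1.87 against 0.305, 0.261 and 0.342 CPM. In K148R cells alone these collagens reached the filter's level in all 3 libraries. Among the parental libraries replicate 1 held nearly all of their counts, at 0.844, 0.784 and 1.02 CPM, above that level of 0.6366 CPM. The part of any of these markers in the AP-1 and EGR values was not tested, and in bulk RNA a change in the share of cells and a change in RNA per cell cannot be told apart. The 10 heat shock genes, a sign of proteotoxic stress or handling, were mixed, with 4 higher and 5 lower in K148R against parental cells.

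The genes whose profile over the 9 libraries was nearest to that of a member were found by the root mean square difference of centred log2 CPM, among 9061 genes with at least 10 CPM on average. Nearest to FOS were ARHGAP25 (0.078) and LILRA2 (0.092), to FOSB CES1 (0.097) and ITGB7 (0.16), and to JUN, less closely, SLAMF8 (0.28) and RGL1 (0.35). CES1, a carboxylesterase of monocytes, went from 81.3 CPM in parental and 105 in K148Q to 1122 in K148R cells, and LILRA2, an immunoglobulin-like receptor of myeloid cells, was at 53.2, 32.2 and 165 CPM. JUND was nearest to ATP11A (0.03) and SIK3 (0.03), and FOSL2 to CHTF8 (0.029) and CCT7 (0.042). JUNB was nearest to TYW1 and ZNF768 (0.045 and 0.046), FOSL1 to ZC3HC1 (0.1) and HDDC3 (0.12), and EGR1 to MFSD2A (0.11) and ILKAP (0.12). The nearest genes to EGR2 were TGFBI and FCGRT (0.25 and 0.28) and to EGR3 PRKAR2B and IFI16 (0.35 and 0.37), at distances that counting error in the 2 low genes enlarges.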

How the data were processed

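Total RNA of 9 MV4;11 samples was sequenced, and the labelled genotype gave the groups. The authors deposited raw read counts per gene symbol, 1 column per library, without normalisation. GRCh38, HISAT2 2.0.5, featureCounts 1.5.2 and FastQC 0.11.7 are listed in the submitters' processing notes. The sources used here do not give their options, the strand or the annotation.

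Genes were filtered with filterByExpr by group and tested with edgeR 4.0.16 in R 4.3.3 (TMM, robust quasi-likelihood F test, 1 term per genotype, all 9 libraries, Benjamini-Hochberg over 12845 genes). The SE of a log2 fold change was worked back from the test, as its absolute value divided by the square root of F. The fit was checked on simulated counts. Exon lengths, positions and GC content came from GENCODE v29, promoters from RefSeq. Alternatives were DESeq2 1.42.0, limma-voom (limma 3.58.1), 3 other scalings, 2 other filters, fits of the compared groups only, a replicate block, a GC and length offset (splines with 5 degrees of freedom, GC known for 12543 of the tested genes), and each library left out. The members and lists were chosen with earlier results of these data known. Besides the members, the text names from each pathway list genes among the 2 largest called rises and falls with at least 10 CPM, and the 2 nearest profiles of each member. Chosen after values or sequences were seen were the promoter motifs (TATAAA was searched and dropped, TGACATCA added on reading the JUN window), the family shares, the gene classes by exon number and GC content, and CD4 and RN7SK. Values of 1 listed gene are not reported here.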

Additional observations from a re-analysis of the deposited data

How the results depend on the processing

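The fits were repeated under 11 other settings and with each of the 9 libraries left out. In K148R against parental cells 9 to 10 members were called under every setting, and JUNB was the one lost. In K148R against K148Q cells 9 to 10 were called, and JUNB was gained with upper quartile scaling and without K148Q replicate 2. The K148Q against parental count of 5 was less stable. With only the compared groups it was 3, as FOSL1 was no longer called (adjusted p = 0.0563) and EGR3 did not pass the filter. EGR2 did not pass that filter either, but it was not among the 5. With a library left out the count was 3 to 6, with 3 without parental replicate 3, K148Q replicate 1 or K148Q replicate 2. The sign of FOSL2 in K148Q against parental cells turned without K148Q replicate 3, where leaving out a library gave -0.097 to 0.054. The sign of JUNB in K148R against K148Q cells turned with the GC and length offset (-0.018, adjusted p = 0.742), alone or with the replicate block (-0.018, adjusted p = 0.734). The cause was not tested. The total calls of each of the 5 lists and of all genes stayed within 1.5 times in every setting, but some counts by direction did not. With the GC and length offset, with or without the block, upstream genes higher in K148Q against parental cells were 11, not 6, as also without K148Q replicate 3, and other immediate early genes lower in K148R against K148Q cells were 1, not 0. With the offset and block, targets lower in K148R against parental cells were 7, not 4. Upstream genes higher in K148R against parental cells were 8, not 13, without parental replicate 2 or 3. Feedback inhibitors higher in K148Q against parental cells were 3, not 5, without either of these and with limma-voom. bZIP partners lower in K148R against K148Q cells were 4, not 2, with the offset, with or without the block, and 1 without K148Q replicate 2. With the replicate block, 10 members were called in K148R and 5 in K148Q against parental cells, and 9 between the mutants, the same counts as without it. The numbers name no shared source. Deviations of same-numbered libraries correlated by -0.024 to 0.27 across genes, and 4 of the 9 libraries deviated most like a library of their own number. Depth limits EGR2 and EGR3, with 1 and 13 counts over the K148Q libraries.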
